A study of Oryza sativa with 216 samples.

Results

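TOC75 is the channel of the translocon at the outer envelope of the chloroplast, a beta-barrel protein of the Omp85 family through which proteins made in the cytosol enter the plastid. Most plastid proteins are encoded in the nucleus, so a green leaf depends on this channel, on the translocases of the inner envelope and on the ribosomes, tRNA ligases and RNA polymerases that work inside the organelle. A co-expression module is a set of genes whose transcript levels rise and fall together over many samples, and membership says nothing of which gene acts on which.

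The leading gene of the module, LOC4332389, is called TOC75 here because the gene table used lists that name among its synonyms. The study's sources annotate its probe set in more than 1 way, as an outer-membrane protein of the OMP85 family and as an expressed protein, so the name rests on that table alone.

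The module described here was chosen by its expression in the recombinant inbred lines (RILs) themselves. Among 57258 probe sets without the array's control probe sets, 21792 had a median of at least 6 on the log2 scale over 210 RILs. Each of these was correlated with 3 leading probe sets, those of TOC75 (LOC4332389, the study's candidate regulator in Bin389 of the genetic map), of its candidate in Bin851 (LOC4340278) and of the phosphoenolpyruvate carboxylase of Bin36 (LOC4325531). For 5489 of them the highest r of the 3 was with TOC75, and the 150 with the highest r, TOC75 included, are the members. Because this choice used the RIL values, every correlation over the RILs below is a description without a test. The parental arrays took no part in it, and they carry the tests.

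Flag leaves of rice were collected at heading, on the day the panicle emerged, in untreated field plants of 210 RILs, of Minghui 63 and of Zhenshan 97, the indica parents from whose cross the lines were derived by single-seed descent. Each RIL had 1 array, hybridised with RNA of 2 plantings mixed in equal parts, and each parent had 3 arrays labelled as biological replicates. By the labels the material was sown in batches as biological replicates. Which sowing each parental array came from is not given in the sources used here, so within a parent the sowing, the plants and the array cannot be told apart. Array medians lay between 5.15 and 5.32 in the RILs, between 5.202 and 5.248 in Minghui 63 and between 5.147 and 5.241 in Zhenshan 97. The arrays carry a strong leaf signal, with RIL medians of 14.41 for RBCS, the small subunit of Rubisco, and 14.13 for CAB2R, a chlorophyll-binding protein. With so few arrays per parent, every parental value is of limited precision.

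TOC75 itself lay between 6.42 and 8.78 over the 210 RILs, with a median of 7.55 and an SD of 0.43 on the log2 scale, a 5.13-fold range on the linear scale. By the Bayesian information criterion 1 normal component (252.1) was preferred to 2 (267.3) for its values, the lower criterion being the better. This criterion can miss 2 overlapping groups of lines. The study reported a cis-eQTL for TOC75 in these lines, a locus at the gene itself that goes with its level. In Minghui 63 the 3 arrays read 7.62, 7.90 and 7.06, against 8.06, 7.46 and 8.43 in Zhenshan 97. The parents overlapped. The difference was -0.46 for Minghui 63 minus Zhenshan 97, with a standard error of 0.30 and, by limma over all probe sets, adjusted p = 0.526. It had p = 0.3 in an exact two-sided permutation test, for which 0.1 is the smallest value that 3 arrays against 3 allow. The difference was -0.22 without Minghui 63 replicate 3, -0.24 without Zhenshan 97 replicate 3 and -0.72 without Zhenshan 97 replicate 2, and it passed the threshold in none of these fits.

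The mean of the other members followed TOC75 closely from line to line, as the choice requires, with r = 0.929 and rho = 0.922 (r = 0.924 when the 2 lines most distant from the median of TOC75 were left out). This mean lay between 6.70 and 8.18 with a median of 7.36 and also had the lower criterion with a single component (73.2, against 86.97 with 2). The parental arrays fell on the same band as the lines. The mean of the other members was 7.32, 7.79 and 6.97 on the arrays of Minghui 63, against 7.91, 7.34 and 8.12 on those of Zhenshan 97, in the order of their replicate numbers. Within each parent the array highest in TOC75 was also the highest in this mean, and the lowest was the lowest. Among the RILs, 50% lay below both parental means, 42.4% between them and 7.62% above both.

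**Figure D1:**
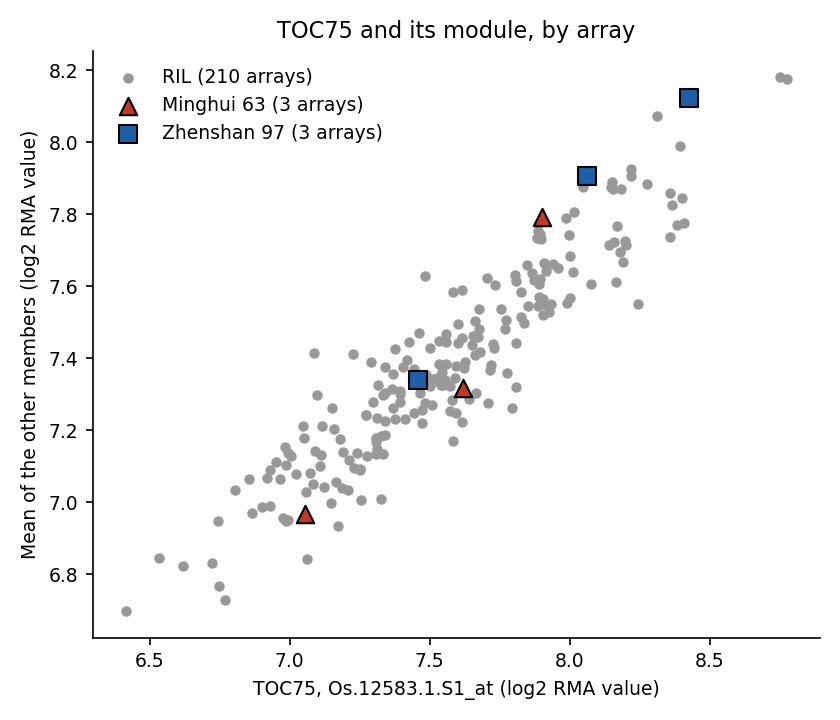
Each point is an array, with the log2 value of TOC75 on the x axis and the mean log2 value of the other members on the y axis. The 210 RILs form a continuous band (r = 0.929), and the 3 arrays of Minghui 63 and the 3 arrays of Zhenshan 97 spread along it rather than forming 2 points.

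Single members had r between 0.755 and 0.894 with TOC75 (median 0.782, quartiles 0.769 and 0.805), and 45 of them reached 0.8. The median r of all probe sets with a RIL median of at least 6, members included and TOC75 left out, was 0.0552. The limit of the module is not a natural gap. The 3 members just inside it had r of 0.7561, 0.7554 and 0.7546, and the 3 probe sets just outside had 0.7545, 0.7538 and 0.7535. No probe set at or above the limit was lost to one of the other leading probe sets. The members were also close to each other, with a median pairwise r of 0.737 over the RILs and 73.2% of their standardised variance on 1 component. Their levels were moderate, with RIL medians between 6.04 and 9.93, and their RIL SDs between 0.20 and 0.61 (median 0.32) compare with a median of 0.23 for all probe sets of that level.

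Beside the other modules chosen in the same way, the values were as follows. The median r with the leading probe set was 0.782 here, against 0.762 in the Bin851 module and 0.650 in the phosphoenolpyruvate carboxylase module, and the share of variance on 1 component was 73.2%, against 72.2% and 66.5%. The mean of the TOC75 module correlated at 0.251 with that of the Bin851 module and at -0.218 with that of the phosphoenolpyruvate carboxylase module. Of the study's other candidate regulators, TOC75 was closest to that of Bin395 (LOC4332493, r = 0.709), while its r with the candidate of Bin851 was 0.143 and that with the carboxylase was -0.138. The candidate of Bin395 had r = 0.756 with the mean of the other members. In the study's map it lies on the same chromosome as TOC75, and the intervals of their loci overlap. The part of linkage in its r was not tested.

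Of the 150 members, 92.7% were paired with a single gene, and 11 had no gene in the annotation used. A gene name or a functional annotation was at hand for 17. The probe set next to TOC75 in rank (r = 0.894) is among those without a gene. The 17 are described here by what they do.

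The named members that act in the making of proteins were TYW1, HisRS and EF-4. TYW1 takes part in making wybutosine, a modified base beside the anticodon of phenylalanine tRNA. It ranged from 5.76 through a median of 6.58 to 7.43 over the RILs (r = 0.840), and read 6.324, 6.445 and 6.075 in Minghui 63, against 6.979, 6.397 and 6.997 in Zhenshan 97. A single array of Zhenshan 97 fell within the range of Minghui 63 (by limma, a difference of -0.51 with a standard error of 0.21 and adjusted p = 0.255). HisRS, which charges histidine tRNA, ranged over 7.57, 8.26 and 9.23 (lowest, median and highest line, r = 0.821) and read 8.41, 8.58 and 8.08 in Minghui 63, against 8.74, 8.53 and 9.09 in Zhenshan 97. EF-4, a LepA-type factor that in bacteria moves stalled ribosomes back, had r = 0.770, with 6.82, 7.96 and 6.87 in Minghui 63, against 7.80, 7.03 and 7.74 in Zhenshan 97. In both of these the parents overlapped.

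PRIN2 and wsl8 varied most among the named members. PRIN2 is known from Arabidopsis as a nucleoid protein needed for full activity of the plastid-encoded RNA polymerase. It ranged over 4.795, 6.392 and 7.933 in the RILs (lowest, median and highest, SD 0.59, r = 0.790) and read 7.002, 7.522 and 5.484 in Minghui 63, against 7.728, 6.656 and 8.563 in Zhenshan 97. The difference of -0.98 had a standard error of 0.59, and the SD among the 3 arrays was 1.06 in Minghui 63 and 0.956 in Zhenshan 97, above that of the RILs. The gene wsl8 encodes a deoxyribonucleoside kinase whose loss gives white-striped leaves. It ranged over 5.11, 6.13 and 8.08 (SD 0.56, r = 0.824) and read 6.23, 7.39 and 5.43 in Minghui 63, against 6.77, 5.74 and 7.07 in Zhenshan 97, with a difference of -0.18 (standard error 0.50). For 2 protease genes, annotated as the Lon homologue OsLonP3 (LOC_Os07g48960) and the Clp homologue OsClp4 (LOC_Os03g19510), r was 0.813 and 0.795. OsLonP3 was the only gene with 2 member probe sets, and its second one had r = 0.788. OsClp4 read 8.89, 9.31 and 8.12 in Minghui 63, against 9.24, 8.49 and 9.59 in Zhenshan 97, again with overlap.

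A further group acts on DNA. KU70, a subunit of the dimer that binds broken DNA ends, had r = 0.818 and read 7.217, 7.527 and 7.004 in Minghui 63, against 7.674, 7.053 and 7.690 in Zhenshan 97. KU80, the other subunit, is not a member. The brightest of its 4 probe sets had r = 0.0694, and the highest r among the 3 with a RIL median of at least 6 was 0.650. RFC5, a subunit of the clamp loader of DNA replication, had r = 0.767, and TOP6B, a subunit of DNA topoisomerase VI, had r = 0.768. ROS1C, a DNA glycosylase that removes methylated cytosine, had r = 0.794 and read 6.65, 7.24 and 6.48 in Minghui 63, against 6.87, 6.41 and 6.67 in Zhenshan 97. Its mean was higher in Minghui 63 by 0.14 (standard error 0.23), whereas that of KU70 was lower by 0.22 (difference -0.22, standard error 0.23), and neither passed the test. PRMT1, a protein arginine methyltransferase, had r = 0.799 and read 7.862, 8.342 and 7.604 in Minghui 63, against 8.443, 7.978 and 8.473 in Zhenshan 97.

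The remaining named members were a CCCH zinc finger gene (OsC3H59, r = 0.776), a putative nucleic acid binding protein (LOC_Os03g52490, r = 0.776), a putative nucleoporin (LOC_Os01g54240, r = 0.769) and a putative 2-isopropylmalate synthase (LOC_Os12g04440, r = 0.765), the type of enzyme that opens the synthesis of leucine. The nucleoporin and the synthase had the highest parental differences of all 150 members, 0.42 (with a standard error of 0.31 and, by limma, adjusted p = 0.583) and 0.36 (standard error 0.30, adjusted p = 0.648). The synthase read 9.35, 9.85 and 8.64 in Minghui 63, against 9.17, 8.63 and 8.96 in Zhenshan 97. Its 3 values in each parent thus overlapped, like those of all 17 named members.

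**Figure D2:**
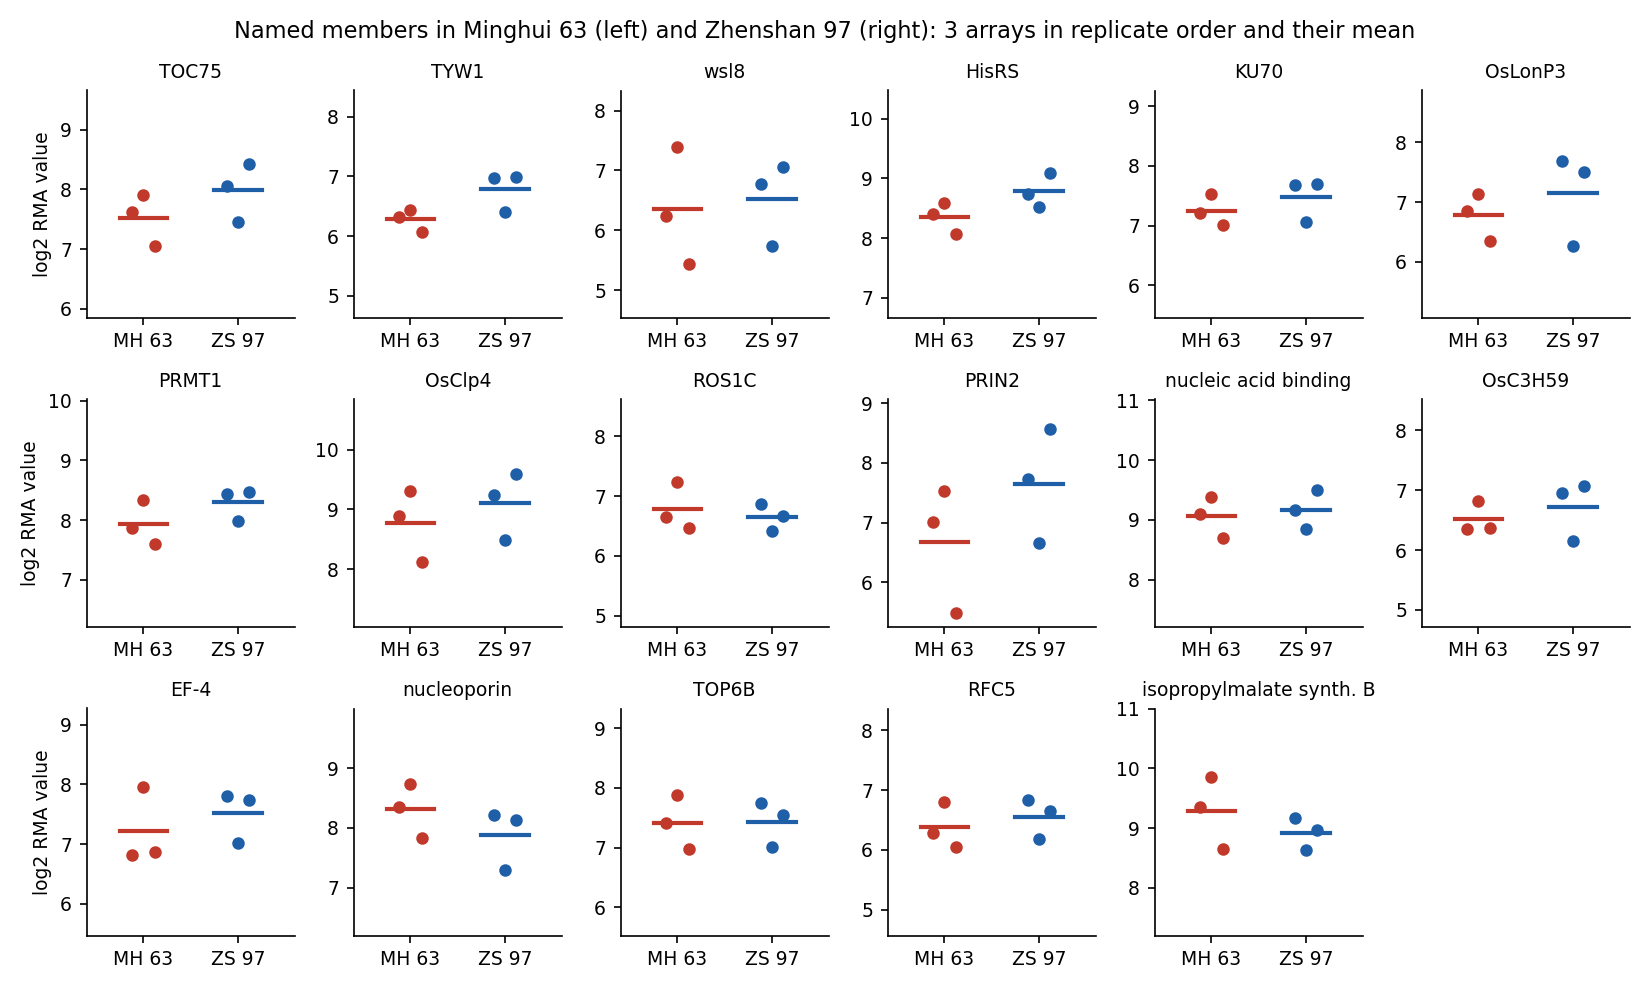
Each panel is 1 named member, with the 3 arrays of Minghui 63 on the left and the 3 arrays of Zhenshan 97 on the right in replicate order, and a line at the mean of each. All panels span 3.8 log2 units. In TOC75, wsl8, PRIN2 and most others the second array of Minghui 63 stood highest and the third lowest, while in Zhenshan 97 the second array stood lowest.

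The parents were compared over all 150 members by limma with 3 arrays each. At an adjusted p under 0.05, 0 members were higher in Minghui 63 and 0 were lower. Without Zhenshan 97 replicate 2, 9 members were lower, and 2 were lower without Minghui 63 replicate 2, without the variance trend or when only probe sets with a RIL median of at least 6 were tested. Over all 57258 probe sets 2.86% were higher and 2.46% were lower, and over the 21792 probe sets with a RIL median of at least 6 these shares were 4.91% and 3.89%. At an unadjusted p under 0.05, 0 members were higher and 28 were lower, beside 14.7% and 12.4% of the probe sets of that level. The 3 arrays of Minghui 63 all lay above those of Zhenshan 97 in 0 members and all below in 15 members (10%), beside 18.9% and 13.9%. The 2 members with the smallest p were LOC4346844 at 6.97, 6.90 and 6.65 in Minghui 63, against 7.68, 7.33 and 7.70 in Zhenshan 97 (difference -0.73, standard error 0.18, adjusted p = 0.0595), and LOC4341920 at 7.93, 7.97 and 7.88 in Minghui 63, against 8.64, 8.46 and 9.13 in Zhenshan 97 (difference -0.82, standard error 0.20, adjusted p = 0.0611). In these 2 genes, chosen after their values were seen, the parents did not overlap.

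The mean was lower in Minghui 63 in 91.3% of the members, against 46.9% of the probe sets with a RIL median of at least 6. The median difference of the members was -0.45, with quartiles of -0.60 and -0.22, against 0.03 with quartiles of -0.24 and 0.27. The phosphoenolpyruvate carboxylase module had a median difference of -0.43, and the Bin851 module had one of 0.54. A lower level in Minghui 63 was thus not particular to the TOC75 module. Members are not independent of each other, since they move together from array to array, so their number adds little to the 6 arrays. For the mean of the other members the parents stood at 7.36 ± 0.41 in Minghui 63 and at 7.79 ± 0.40 in Zhenshan 97 (SD, n = 3 each), a difference of -0.43 that is about as large as the spread between replicates. The share of lower members was 79.3% without Minghui 63 replicate 3 and 96% without Minghui 63 replicate 2. The median difference was -0.25 without Minghui 63 replicate 3 and -0.26 without Zhenshan 97 replicate 3.

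**Figure D3:**
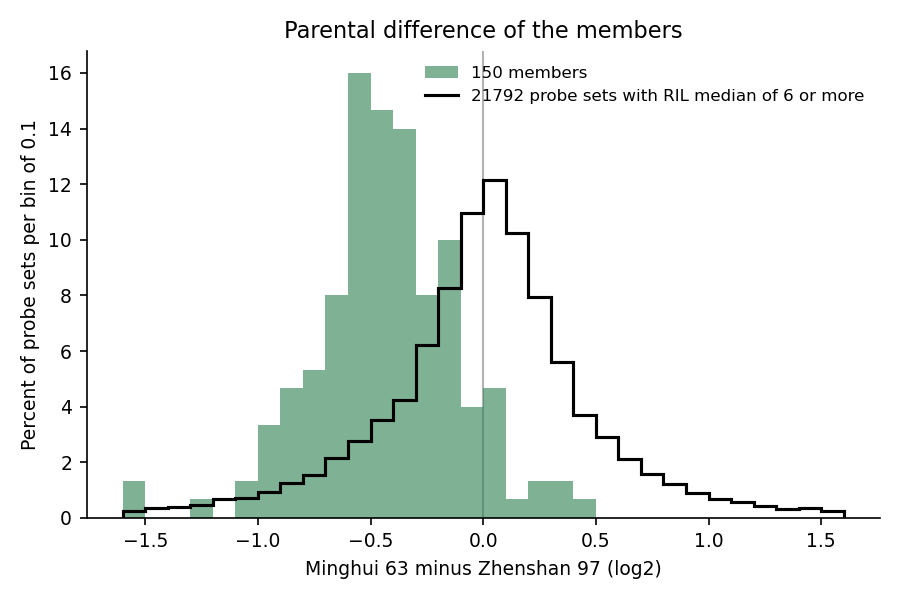
The filled bars give the percent of the 150 members, and the black line that of 21792 probe sets with a RIL median of at least 6, in bins of 0.1 of the parental difference (Minghui 63 minus Zhenshan 97, log2). The members centre on -0.45 and all probe sets of that level on 0.03, and 4.24% of these lie outside the range drawn.

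The module moved within the parents as well, among arrays of 1 genotype. Relative to the mean of its parent, TOC75 deviated by 0.09, 0.38 and -0.47 on the arrays of Minghui 63 and by 0.08, -0.52 and 0.44 on those of Zhenshan 97. The median deviation of the other members was -0.03, 0.42 and -0.36 in Minghui 63, and 0.12, -0.41 and 0.33 in Zhenshan 97. The array medians, in the same order, were 5.248, 5.202 and 5.233, and 5.147, 5.241 and 5.215. Their part in the deviations was not tested. On the 4 arrays on which TOC75 deviated most, between 95.3% and 100% of the other members deviated in its direction, whereas on the first array of Minghui 63, where it deviated by 0.09, 43.6% did. The share of all probe sets of that level that shared the direction lay between 45.3% and 53.5% on the 6 arrays.

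Over these 6 deviations the median r of a member with TOC75 was 0.922 (quartiles 0.856 and 0.953), and 98.7% of the members were above 0.5. For all probe sets with a RIL median of at least 6, members included and TOC75 left out, the median was -0.101, and 22.7% were above 0.5. With each array left out in turn the members' median lay between 0.896 and 0.955. These arrays were not used to choose the members, but 6 deviations from 2 means are few points, and they share the 6 arrays over all genes. In the other modules the median within-parent r with the leading probe set was 0.566 (Bin851) and 0.688 (phosphoenolpyruvate carboxylase), a difference that was not tested.

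For most members the spread among the lines was no larger than that among arrays of 1 parent. The SD of TOC75 over the RILs was 0.936 times its SD within the parents, and for the mean of the other members this ratio was 0.687. Of the 150 members, 80.7% had a lower SD over the RILs than within the parents, against 47.6% of the probe sets of that level. The median ratio was 0.761, against 1.03. The RNA of a RIL was mixed from 2 plantings, and whether that of a parental array was mixed is not given in the sources used here. The part of this in the ratio was not tested. Among the named members, PRIN2 (0.587), wsl8 (0.660) and EF-4 (0.543) had low ratios, while TYW1 (1.11) and HisRS (1.11) varied slightly more over the RILs.

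Members with a steep slope on TOC75 over the lines tended to have a steep one within the parents. The slope of a member on TOC75 over the RILs, in log2 units per log2 unit, had a median of 0.584 and ran from 0.362 to 1.11, and the slope over the 6 within-parent deviations had a median of 0.841. PRIN2 had slopes of 1.08 over the RILs and 2.17 within the parents, and wsl8 had 1.08 and 1.75. ROS1C, at 0.630 and 0.532, and TYW1, at 0.599 and 0.560, were flatter within the parents. Across the other members, which are not independent, the 2 slopes correlated with r = 0.755 and rho = 0.619. The choice holds the r of the members over the RILs between 0.755 and 0.894, so a slope there largely follows the member's own SD. Whether the 2 slopes share more than a wide or narrow spread of the probe set was not tested.

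**Figure D4:**
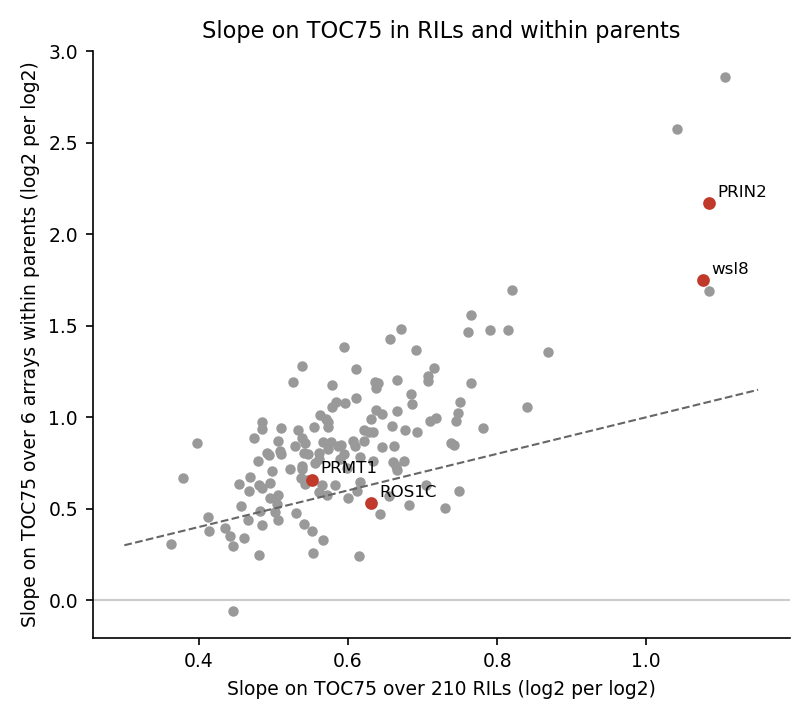
Each point is 1 of the other members, with its slope on TOC75 over 210 RILs on the x axis and over the 6 within-parent deviations on the y axis (log2 per log2), and the dashed line marks equal slopes. PRIN2 (1.08) and wsl8 (1.08) are steep in the RILs and within the parents (2.17 and 1.75), and most points lie above the dashed line. The slope over the RILs largely follows a member's own SD, since the choice holds r there in a narrow range.

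To place the module among known processes, the r of each gene with TOC75 over the RILs is given for 14 lists of genes. The lists were written with these r values known and hold the named members and named genes close to the limit, so the order of the lists is no finding. All but 1 of these genes were measured, and 92.6% had a RIL median of at least 6 in their brightest probe set. As a background, 6.50% of all probe sets of that level had r of at least 0.5, and 20.3% had r of -0.2 or less. In organelle protein import 6 of 10 genes had r of at least 0.5, TOC75 itself being 1 of them. The list also holds OEP21 (0.597) and OEP24 (0.168), outer envelope channels for solutes rather than for proteins. OEP80, the second Omp85-type protein of the plastid envelope, stood just outside the module at 0.742, and the mitochondrial import genes TIM9 and TIM13 had 0.695 and 0.644. Of the thylakoid twin-arginine pathway, HCF106 had 0.561 and TATC had 0.0172, the latter with a RIL median of 11.708 and an SD of 0.1665. Apart from TOC75, the genes of this list thus ranged from an r near 0 to the edge of the module.

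Organelle translation and tRNA charging had a median of 0.686, with 9 of 10 genes at 0.5 or more and 3 members (HisRS, EF-4 and TYW1, of which TYW1 modifies tRNA rather than charging it). MetRS (0.729), mEF-G (0.698), a mitochondrial elongation factor, and LysRS (0.675) followed. The annotation used does not say where in the cell HisRS, TYW1, MetRS and LysRS act, so their r is not a result about organelles. All 6 genes of plastid transcription and RNA reached 0.5, with a median of 0.573. One of them, OsSig2B (0.518), is the gene directly beside TOC75 on chromosome 3, and the part of linkage in its r was not tested. DNA replication and repair had 13 of 21 genes at 0.5 or more and 4 members (wsl8, KU70, TOP6B and RFC5). Of the other clamp loader genes, RFC3 had 0.718, RFC1 had 0.673 and RFC2 had 0.489, and RFC4 had a RIL median below 6. PCNA, the sliding clamp itself, had 0.231 and SPO11-3, the other subunit of topoisomerase VI as known from Arabidopsis, had -0.375. SPO11-3 lay high on the scale with little spread (RIL median 12.675, SD 0.118), unlike TOP6B (7.46, SD 0.334). The part of this in its r was not tested.

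The cytosolic ribosome had positive r throughout without entering the module. All 22 genes had a positive r between 0.344 and 0.643 (median 0.542), 16 of them at 0.5 or more. In amino acid and pyrimidine synthesis all 11 genes were positive (median 0.568), led by CARA, the small subunit of carbamoyl phosphate synthetase, at 0.743. Among small RNA, DNA methylation and arginine methylation genes 6 of 15 reached 0.5 and 2 were members (ROS1C and PRMT1), while the de novo DNA methyltransferase DRM2 had -0.344. Pigment synthesis was mixed, with GSA, which makes the tetrapyrrole precursor aminolevulinate, at 0.714 and the heme oxygenase HO1 at -0.403.

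The remaining lists were those of photosynthesis, senescence, MADS-box genes, the clock, heat shock, and organelle proteases and chaperones. Among photosystem and carbon assimilation genes 0 of 15 reached 0.5 and 5 were at -0.2 or less, among them PSAG, a photosystem I subunit (-0.386), and GLO5, a glycolate oxidase (-0.402). Many of these genes lie near the top of the scale with little spread, such as RBCS with a RIL median of 14.41 and an SD of 0.033 and PETE, plastocyanin, with 14.10 and 0.054. The part of saturation in their low r was not tested. Of 8 senescence genes 0 reached 0.5 and 2 were at -0.2 or less, with SAG12, a cysteine protease of ageing leaves, at -0.410. MADS-box genes had a median of -0.122, clock genes of -0.0131 and heat shock genes of 0.245. Of 16 organelle protease and chaperone genes 2 reached 0.5, the metalloproteases FTSH4 (0.688) and EGY1 (0.553). This list was matched by symbol and leaves out the members OsLonP3 and OsClp4, which are known here by annotation only.

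**Figure D5:**
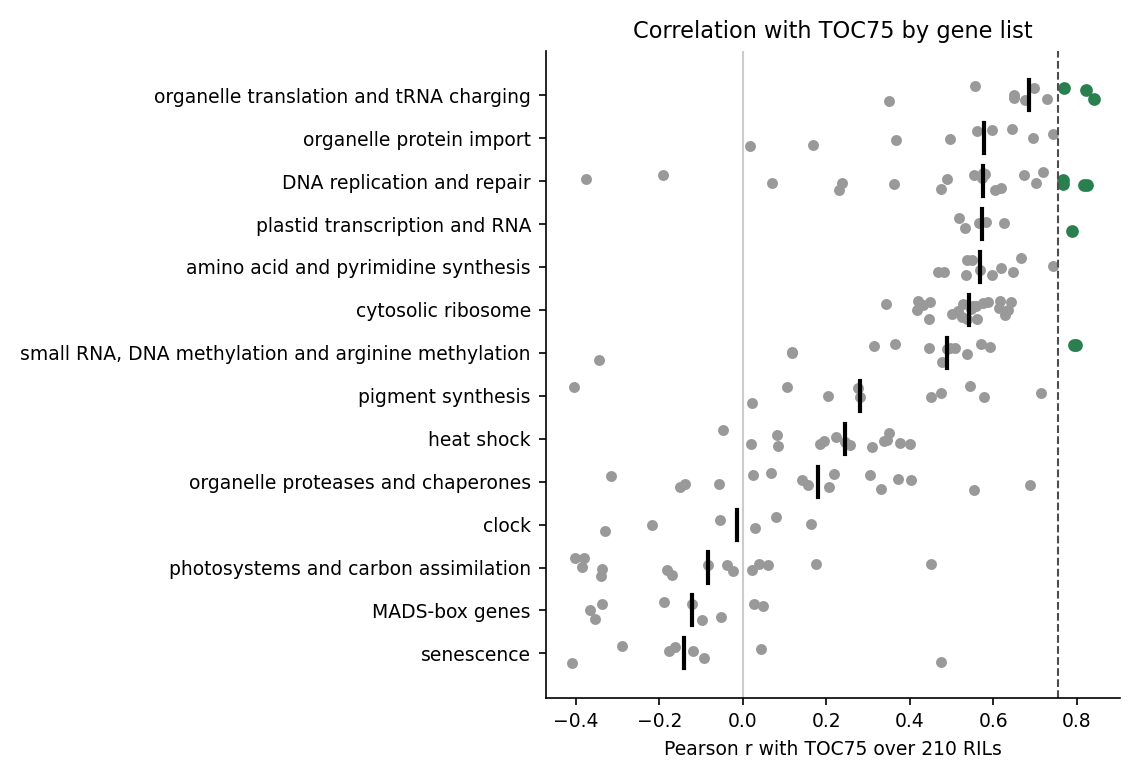
Each point is a gene of a list, placed by its Pearson r with TOC75 over 210 RILs (x axis), with members in green, other genes in grey, a black bar at the median of each list and a dashed line at the limit of the module (0.755). TOC75 itself is not drawn but counts in the median of its list. The lists were written with these values known. The median was 0.686 for organelle translation and tRNA charging and -0.141 for senescence.

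In the parental test 7 genes of the 14 lists (3.72% of those measured) were higher in Minghui 63 and 10 (5.32%) were lower, near the shares of 4.91% and 3.89% of all probe sets with a RIL median of at least 6. In the list of organelle protein import 1 of 10 was lower in Minghui 63, by a difference of -0.80. It was the solute channel OEP24, not a gene of protein import itself. In plastid transcription and RNA 1 of 6 was lower (OsSig2B, a sigma factor of the plastid RNA polymerase, -1.03). In DNA replication and repair 1 was higher and 1 was lower of 25, namely POLD1 (1.43), the catalytic subunit of DNA polymerase delta, and PCNA (-0.81). For the list of organelle translation and tRNA charging and for the cytosolic ribosome 0 passed in either direction. The median difference was -0.43 over the 22 ribosomal genes and -0.35 over the list of organelle translation and tRNA charging, beside 0.02 over all probe sets. Of the ribosomal genes 21 had the lower mean in Minghui 63, beside 46.9% of the probe sets with a RIL median of at least 6. These genes share the same 6 arrays and are not independent, so their number adds little.

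The genes lowest in r with TOC75 were of mixed function. The 10 lowest named genes had r between -0.566 and -0.484. The lowest was DSM3, an inositol phosphate kinase of drought and salt tolerance, at 12.203, 12.702 and 13.004 (lowest, median and highest RIL), then CYP76M6, a cytochrome P450 (-0.534), a gene listed only as a kinase (LOC9267958, -0.514), IAA5, an Aux/IAA repressor of auxin response (-0.505), and PP2A2, a protein phosphatase catalytic subunit (-0.495). OsTLP11, of the tubby-like family, EX1, a chloroplast protein of singlet oxygen signalling (-0.493), OsTrxm5, an m-type thioredoxin (-0.487), DI19-5 and the MADS-box gene OsMADS14 (-0.484) completed them. None of the 10 passed the parental test. Negative relations were weaker than positive ones, the lowest r of any probe set being -0.610. At -0.5 or less were 0.463% of the probe sets, against 6.50% at 0.5 or more and 0.734% at 0.75 or more.

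The gene of TOC75 lies on chromosome 3. In the gene order of the assembly ASM3414082v1, 25 genes within 20 genes of it had a RIL median of at least 6. Their r with TOC75 ran from -0.464 to 0.597 with a median of 0.174, beside 0.0552 for all probe sets of that level. The highest were LOC4332375 (0.597), LOC4332391 (0.578) and OsSig2B (0.518), and the part of linkage in these values was not tested. In the module were 0 of them. Within 60 genes to either side 76 were measured and 0 were members. As only 150 of the 21792 probe sets of that level are members, a count of 0 in either window is near that share and is no finding. The highest was LOC4332435, 47 genes away, at 0.749, just under the limit. Over the genome 28 member genes (20.3%) lay on chromosome 3, against 14.7% of the 12036 genes measured at that level, and 7 (5.07%) on chromosome 2, against 12.5%.

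Some member genes had further probe sets that did not join the module. For 6 genes, 7 other probe sets had a RIL median of at least 6, with r between -0.0489 and 0.730 (median 0.541). In LOC4327636 the member probe set had r = 0.829 and the brighter one (RIL median 11.37) had -0.0489, so the 2 differed in their relation to TOC75. In LOC4324278 the member had 0.861 and the others 0.138 and 0.141. Which transcripts these probe sets detect was not tested.

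Technical measures moved with the module in part. Over the RILs its mean had r = -0.605 with the median of the array, which spans a narrow range after normalization, and between -0.0713 and 0.381 with the differences between 3′ and 5′ probe sets of 7 control pairs, a sign of RNA integrity. Neighbouring lines in the order of their numbers correlated at 0.123. With the 3′ minus 5′ differences removed the median r of the members was 0.753, and with the means of blocks of 10 consecutive lines removed it was 0.769. With the first 5 principal components of all probe sets removed it was 0.267, against a 95th percentile of 0.211 for all probe sets but TOC75. The mean of the module had r of -0.620 with the first of these components, which held 18% of the variance of all probe sets and between -0.447 and 0.446 with the other 4. The part of array quality in the module was otherwise not tested, and in leaf RNA a change in the share of a cell type and a change within cells cannot be told apart.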

How the data were processed

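Flag leaf RNA was measured on Affymetrix rice arrays. The deposited values are on the log2 scale, 1 for each probe set and array. The submitters' processing notes name RMA and affy for this step (versions not given in the sources used here). All 216 arrays were used as deposited, with 0 columns of values left unused, and control probe sets were left out.

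The members and the gene lists were chosen with earlier results of these data known. For the parental comparison, lmFit and eBayes (trend) of limma 3.58.1 (R 4.3.3) were fitted to all 57258 probe sets, p-values were adjusted by Benjamini-Hochberg over these, and the threshold was 0.05. The routines were tested on simulated data. Python 3.11.15 and numpy 2.4.6 gave the correlations, and scikit-learn 1.9.0 the mixtures.

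Genes came from the platform annotation. Names were taken from the gene table of ASM3414082v1, and annotations of 5 further members from part of a supplementary table. The annotation holds no gene descriptions, so lists were matched by symbol, not by keywords as planned, each gene by its probe set with the highest RIL median. Named were TOC75, members with a name or annotation, those at the limit, listed genes, the 10 named genes with the lowest r and neighbours of TOC75. Promoter and protein sequences were not used here. Alternatives were the variance trend, a filter, quantile normalization, a replicate block, each array left out, Spearman correlation, other minimum levels and removal of components, 3′ minus 5′ differences or line blocks.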

Additional observations from a re-analysis of the deposited data

How the results depend on the processing

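Under the alternatives for the parental comparison, 0 members were higher in Minghui 63 in every fit. The number lower was 0 with quantile normalization, 2 without the variance trend, 2 when only probe sets with a RIL median of at least 6 were tested, and between 0 and 9 with each array left out (9 without Zhenshan 97 replicate 2, 2 without Minghui 63 replicate 2). The difference of TOC75 stayed negative and did not pass, between -0.72 and -0.22 with each array left out, and the median difference of the members lay between -0.65 and -0.25. With the replicate block, 0 members passed and TOC75 had a difference of -0.46 (adjusted p = 0.680 from limma). Same-numbered arrays of the parents deviated with r of -0.235, -0.285 and -0.113, so the numbers were not taken to pair the samples. The median r of the members was 0.775 by Spearman correlation, 0.769 without the 2 farthest lines and 0.267 with the first 5 principal components removed. Chosen anew, 91.3% of the members were found again by Spearman correlation, 86% with a minimum RIL median of 5, 84.7% with 3′ minus 5′ differences removed, 86.7% with line blocks removed and 34 of the 150 with the components removed. With a minimum of 7, 88 were found again, which is every member that reaches that level. The share of members described as plastid proteins was not run, since the annotation used holds no descriptions.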
